A study of Mus musculus with 4 samples.

Results

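Lung neutrophils were taken from single-cell suspensions of mouse lung as the barcodes that held UMIs of neutrophil receptor genes and almost none of other lineages. A barcode stands for 1 droplet, and a UMI for 1 captured RNA molecule. Members were chosen by raw counts: at least 5 UMIs over Csf3r, Cxcr2 and Retnlg together, at most 1 UMI of Csf1r, under 20 UMIs over C1qa, C1qb and C1qc, no UMI of Cd3e, Cd79a or Cdh5, at least 500 UMIs in all and at most 20% mitochondrial UMIs. This rule took 332 of 19427 lung barcodes that passed the last pair of filters, out of 29563 in the whole series. The series profiled lung and synovium of TNF-Tg mice (TNF+), which carry a human TNF transgene and develop inflammatory arthritis with pulmonary hypertension, and of littermates without it (TNF-), to find the cells that express complement genes. All mice were female C57BL/6 animals 4 months old, and tissue of 3 to 5 mice per genotype was pooled before the lung was digested with Collagenase A, Elastase and Dispase II. Each genotype is therefore 1 lung library, no replicate exists, and no p-value or standard error is given. Intervals below are 95% counting intervals (exact), which leave out the variation between mice, digestions and captures, and the genotype cannot be told apart from the library. The mm10 reference holds no human TNF, so the transgene itself was not measured.

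Neutrophils are short-lived granulocytes that are made in bone marrow and held in large numbers within lung vessels. Their granule proteins are made in sequence during maturation: primary granule enzymes such as myeloperoxidase at the promyelocyte stage, secondary granule proteins such as lactoferrin and the cathelicidin Camp at the myelocyte stage, and gelatinase (Mmp9) later. A circulating neutrophil has largely stopped making the first of these, and leaves the marrow as Cxcr4 signalling falls and Cxcr2 signalling prevails. When TNF binds its receptors, the transcription factor NF-kB is released from its inhibitors and drives genes for cytokines, survival factors and those same inhibitors.

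The label was checked against 6 markers, of which Csf3r (receptor of the growth factor G-CSF), Cxcr2 (receptor of CXCL1 and CXCL2) and Retnlg (resistin-like gamma) were in the rule and are description only. The calprotectin genes S100a8 and S100a9 and the decoy receptor Il1r2 were not in it. S100a8 was detected in 98.3% of TNF- and 98.9% of TNF+ members, S100a9 in 97.1% and 97.9%, and Il1r2 in 84.0% and 86.2%. Over classical monocytes of the same library (Ly6c2, Ccr2 and Csf1r positive, 67 TNF- and 200 TNF+ cells), the members stood highest for Retnlg, S100a9, Cxcr2, S100a8, Mmp9, Stfa2l1, Dhrs9, Cstdc4, Ifitm1, Ankrd33b, Slc40a1, Nlrp12, Asprv1, Wfdc21 and Il1f9. The smaller log2 ratio of the 2 libraries ran from 9.93 for Retnlg to 6.47 for Il1f9. Counts under 3 were set to 3 for these ratios. The values of Cxcr2, Stfa2l1, Dhrs9, Slc40a1, Asprv1 and Il1f9, with 0 TNF- monocyte UMIs, rest on that floor. So do those of Cstdc4, Nlrp12 and Ankrd33b, with 1, 1 and 2 such UMIs. Retnlg and Cxcr2 were in the rule, so their place here is description only. Mmp9, Stfa2l1 and Asprv1, which were not in it, had 1, 0 and 0 UMIs over the TNF- monocytes.

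A small group of members did not carry the calprotectin genes. Fewer than 50 UMIs of S100a8 and S100a9 together were found in 25 of 238 TNF- and 6 of 94 TNF+ members. Those 25 held 204735 of the 1249861 TNF- neutrophil UMIs, with 822 to 41108 UMIs per cell, and 4 of them held at least 20 UMIs each of Tcf7l2, which nonclassical monocytes express. They also held 777 of 860 Chil3 UMIs of that library, a gene of alveolar macrophages as well as of immature neutrophils. The label thus holds for most but not all members, and several values that rest on these cells are given with and without them. At the threshold, the 7 TNF- members with 5 to 10 rule UMIs had a median of 1 S100a8 UMI and 17399 UMIs in all, while the 8 such TNF+ members had 24 and 1340. Just outside it, with 3 or 4 rule UMIs, 12 TNF- and 11 TNF+ barcodes had medians of 1.5 and 0 S100a8 UMIs.

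Neutrophils were shallow cells within each library. Their median was 4450.5 UMIs (671 to 41108) in TNF- and 6170.5 (892 to 39360) in TNF+, against 10029 and 10001 in T cells, and the median number of genes was 1582.5 and 1751. Free RNA that enters every droplet therefore weighs more on them. The lower mean of T cells and B cells, chosen with no UMI of Csf3r, Cxcr2 or Retnlg, served as the free RNA reference of a gene, and a gene is called above it where neutrophils of the higher library held at least 3 times as many UMIs per cell. Since lymphocytes express many genes themselves, the reference is an upper limit. Markers of other lineages differed in the members too: epithelial genes (10, led by surfactant protein Sftpc) summed to 62.9 UMIs per 10000 in TNF- and 11.8 in TNF+, with a UMI in 237 of 238 and 94 of 94 cells. In TNF- the 5 cells with most UMIs held 89.6% of the Sftpc UMIs. The 15 lymphocyte genes, led by the immunoglobulin chain Igkc, summed to 2.41 and 16.2 per 10000, with Cd3e and Cd79a at 0 by the rule. The 11 dendritic cell genes, led by Cd74, summed to 6.54 and 38.8, mesenchymal genes (10) to 5.42 and 0.804, endothelial genes (9) to 2.21 and 0.820, red cell and platelet genes (9) to 4.15 and 1.38, macrophage and monocyte genes (14) to 12.4 and 9.39, and eosinophil, basophil and mast cell genes (10) to 1.46 and 0.225. Per cell, the macrophage and monocyte genes had medians of 2.75 per 10000 in TNF- and 6.88 in TNF+, the other way from their sum. Without the 5 cells with most of their UMIs, the log2 ratio of that sum was 0.95, beside -0.40 with them. Csf1r, C1qa, C1qb and C1qc in this list, and Cdh5 among the endothelial genes, were limited by the rule. The part of all these lineage markers in the differences below was not tested beyond the free RNA reference. The lung libraries shared 21 barcodes, of which 1 was a neutrophil in either and none in both.

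By the rule, neutrophils were a smaller share of the TNF+ lung. They made up 238 of 8342 barcodes of the TNF- lung, 2.85% (2.51 to 3.23), and 94 of 11085 of the TNF+ lung, 0.848% (0.686 to 1.04), which is 3.36-fold less. As UMIs they were 1.31% and 0.400% of all UMIs kept. The difference depended on how the cells were chosen. With at least 5 rule UMIs and no other condition the shares were 4.28% and 4.29%. Under the other settings tried, calprotectin in place of the rule included, the fold was 2.29 to 4.53. The lowest fold came from a rule that used only S100a8 and S100a9 (at least 50 UMIs together and no other condition), at 3.40% and 1.49%, and the highest from the strictest limits on Csf1r and C1q, at 2.09% and 0.460%.

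The limit on Csf1r, the receptor of the macrophage growth factor CSF-1, took out more cells in TNF+. Of the barcodes with at least 5 rule UMIs, 357 in TNF- and 476 in TNF+, the Csf1r limit was exceeded by 66 and 373, the C1q limit by 6 and 105, the lymphocyte genes by 33 and 86 and Cdh5 by 37 and 13. The 119 TNF- and 382 TNF+ barcodes that the conditions took out had medians of 24 and 6 rule UMIs, 2 and 20 Csf1r UMIs, 162 and 1 calprotectin UMIs and 10034 and 20076 UMIs in all. At least 50 calprotectin UMIs were held by 58.0% and 18.6% of them, beside 89.5% and 93.6% of members. Free Csf1r also differed, with 0.0426 UMIs per T cell in TNF- and 0.510 in TNF+. Barcodes just outside it, with 2 or 3 Csf1r UMIs and all else met, numbered 27 and 35 and had median S100a8 UMIs of 130 and 517, beside 172 and 537.5 in members. Those just inside it, with 1 Csf1r UMI, numbered 64 and 42. With a limit of 3 UMIs the shares were 3.18% and 1.16%. A share of captured cells depends on digestion and capture and cannot be told apart here from the number of neutrophils in the lung.

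**Figure D1:**
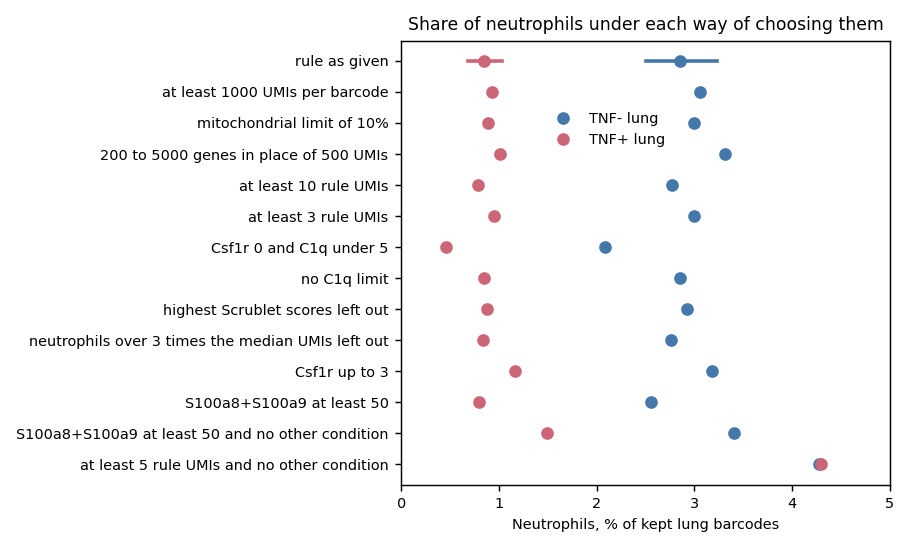
Share of neutrophils among the kept barcodes of each lung library (x axis, %) under each way of choosing them (y axis), with the 95% counting interval for the rule as given. On the last line, with no condition but the rule UMIs, the points lie at 4.28% and 4.29%, and on the others the TNF- points lie between 2.09% and 3.40% and the TNF+ points between 0.460% and 1.49%.

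Within neutrophils, 6900 genes had at least 20 UMIs over both libraries and were compared as CPM, UMIs per 1000000 neutrophil UMIs of the library. At least 2-fold higher in TNF+ with the interval above 0 were 220 genes, 3.19% of those compared, and at least 2-fold lower with the interval below 0 were 1316, 19.1%. The median gene was at -0.43 on the log2 scale, and the counts of all lists below stand beside these values. Among the 1032 genes above the free RNA reference, 113 were higher and 204 lower, with a median of -0.24. S100a8 and S100a9 alone took 10.3% of TNF- and 20.1% of TNF+ neutrophil UMIs, which lowers the CPM of every other gene in TNF+. How much of the median of -0.43 this makes up was not tested. Scaling by the median of gene ratios, which moves each log2 value up by 0.43, gave 464 higher and 670 lower, so that genes higher in TNF+ made up 40.9% of those past 2-fold in place of 14.3%. Without the members under 50 calprotectin UMIs, 265 genes were higher and 799 lower.

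Calprotectin, the most abundant protein of the neutrophil cytosol, was coded by more RNA in TNF+ neutrophils. S100a8 stood at 44750 CPM in TNF- and 95426 in TNF+, a log2 ratio of 1.09 (1.08 to 1.11), and S100a9 at 58015 and 106059, a log2 ratio of 0.87 (0.86 to 0.89). Per cell, the 2 genes took a median of 9.72% of the UMIs in TNF- (0 to 33.0) and 20.5% in TNF+ (0 to 39.6). The libraries overlapped over most of this range. Of the 7 alarmin genes compared, 2 were at least 2-fold higher (S100a8 and the antimicrobial Wfdc21 at 1.87) and none lower, with a median of 0.84. S100a8 came within 2-fold with free RNA subtracted (0.75), which left 1 of 6 higher. Without the members under 50 calprotectin UMIs 1 of 7 was higher, but that setting chooses cells by S100a8 and S100a9 themselves. For these 2 genes it is description only. When scaled by gene ratios, 4 of 7 were higher.

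Secondary granule genes were at least 2-fold higher in TNF+ neutrophils in 7 of 8 compared, and Chil3 was lower. Positions are given on GRCm38. Lcn2 (chr2:32384633-32388252), which binds bacterial siderophores, was at 963 CPM in TNF- and 3886 in TNF+, a log2 ratio of 2.01 (1.91 to 2.11), and was detected in 66.4% and 90.4% of cells. Ngp (chr9:110419747-110423012), the neutrophilic granule protein, was at 366 and 2327 CPM, a log2 ratio of 2.67 (2.52 to 2.82), in 8.82% and 40.4% of cells, with 0 to 213 UMIs per TNF- cell and 0 to 634 per TNF+ cell and a median of 0 in both. Mmp8 (neutrophil collagenase) had a log2 ratio of 1.47, Cd177 (a surface protein of secondary granules) 1.89 and Olfm4 (olfactomedin 4) 1.87.

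Camp and Ltf, the cathelicidin and lactoferrin genes, came from a handful of cells. Camp was found in 3 of 238 TNF- and 9 of 94 TNF+ members, 1.26% and 9.57%, and the 5 cells with most Camp held 100% and 98.2% of its UMIs. The log2 ratios of 2.44 for Camp and 2.50 for Ltf therefore describe those cells, which resemble immature neutrophils by these genes, and not the bulk of the members. Ngp was likewise concentrated, with 91.2% and 87.7% of its UMIs in 5 cells, but Lcn2 was not, with 25.4% and 28.2%. The highest doublet scores (Scrublet) took in 10 TNF- and 5 TNF+ members. Without those members the log2 ratios were 9.27 for Camp, 9.51 for Ltf and 5.50 for Ngp. Nearly all TNF- UMIs of Camp and Ltf thus lay in members with such scores, and whether these are doublets was not tested. Without the 5 cells that held most UMIs of the list, the log2 ratio of the summed list was 1.58, beside 1.79 with them. The primary granule genes Mpo, Elane, Ctsg and Ms4a3 had 0 UMIs in both libraries, and Prtn3 had 3 and 1. Without the members under 50 calprotectin UMIs, Chil3 turned to a log2 ratio of 1.33, and the median of the list was 1.74, beside 1.95 with them.

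Shares of cells with a UMI were also compared at equal depth, with each cell thinned to 1000 UMIs. With 236 TNF- and 92 TNF+ cells (2 shallower cells left out of each), 37.7% of TNF- neutrophils (31.5 to 44.2) and 84.8% of TNF+ neutrophils (75.8 to 91.4) held a UMI of Lcn2. In T cells thinned in the same way, which should lack it, it was found in 0.550% and 2.86%. Ly6g, the surface antigen by which mouse neutrophils are sorted, was found in 4.24% and 14.1% of thinned neutrophils and in 0 of 727 and 1 of 1049 T cells. Over all UMIs its log2 ratio was 2.28 (1.86 to 2.72), with detection in 13.4% and 47.9% of cells.

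Later granules differed less. Of 10 genes of tertiary granules and secretory vesicles, 3 were at least 2-fold higher in TNF+ and none lower, with a median of 0.39. The 3 were the formyl peptide receptors Fpr1 (140 and 619 CPM, log2 ratio 2.14) and Fpr2 (134 and 495 CPM, 1.89), which sense bacterial and mitochondrial peptides, and the membrane protease Mmp25 (1.05). Fpr2 shares a stretch of its strand with Fpr3, so its reads may include that gene. Gelatinase Mmp9 (0.50), haptoglobin Hp (0.53), the integrin Itgam (0.27) and the protease inhibitor Slpi (0.08) lay within 2-fold. Among 7 stefins and serpins, which inhibit cysteine and serine proteases, Stfa1 (1.71), Stfa3 (3.01, 6 and 24 UMIs) and Serpinb1a (1.65, within the free RNA reference) were higher and none lower.

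**Figure D2:**
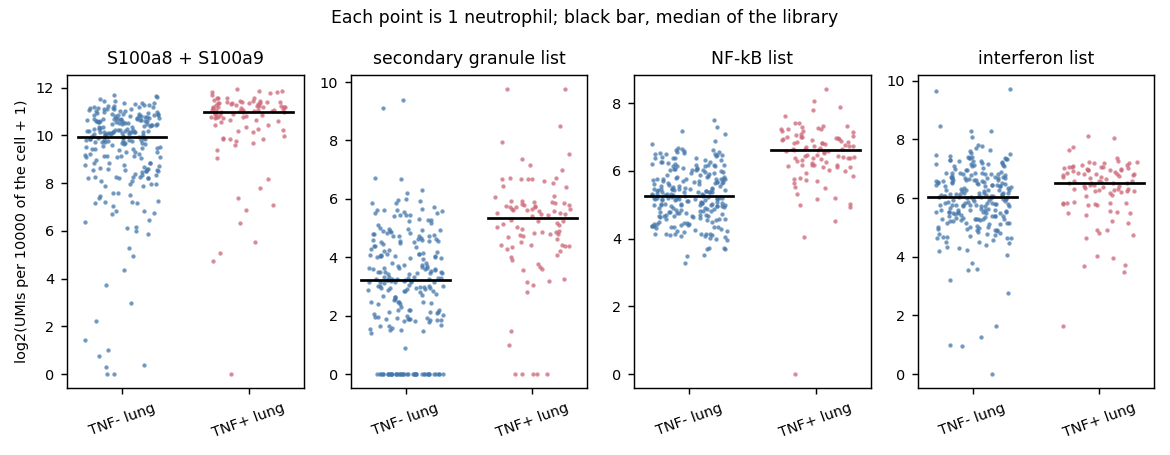
UMIs per 10000 of each neutrophil (y axis, log2 of the value plus 1) for calprotectin, the secondary granule list, the NF-kB list and the interferon list, by library (x axis), with 1 point per cell and a bar at the median. The medians per 10000 are 972 and 2047 for calprotectin, 8.24 and 39.5 for secondary granules, 37.4 and 96.6 for the NF-kB list and 64.6 and 90.9 for the interferon list, TNF- first, and the points of the libraries overlap in each panel.

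Genes of the NF-kB pathway stood higher in TNF+ neutrophils: of 19 compared, 9 were at least 2-fold higher, none lower, and the median log2 ratio was 0.95 against -0.43 for all genes. Nfkbia (chr12:55489410-55492647), which codes the inhibitor IkB-alpha and is itself switched on by NF-kB, was at 718 CPM in TNF- and 2885 in TNF+, a log2 ratio of 2.01 (1.89 to 2.12), and was detected in 79.4% and 97.9% of cells. Tnfaip3, the gene of the feedback inhibitor A20, was at 122 and 419 CPM (1.79), Birc3, a ubiquitin ligase of the TNF receptor complex, at 214 and 953 (2.15), and Ier3, an immediate-early survival gene, at 574 and 1798 (1.65). These 4 genes stood above the free RNA reference. The other 5 did not: the IkB-epsilon gene Nfkbie (2.80), the A20 partner Tnip1 (2.74), manganese superoxide dismutase Sod2 (2.54), the subunit Relb (1.64) and the adhesion molecule Icam1 (1.62).

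Not every member of the pathway followed. The atypical inhibitor Nfkbiz was at a log2 ratio of 0.04, the subunit Rela at 0.08 and Tnfaip2 at -0.73, while Nfkb1 (0.56), Nfkb2 (0.91) and Rel (0.66) lay within 2-fold. Without the members under 50 calprotectin UMIs the median of the list was 1.46, and with scaling by gene ratios 12 of the 19 were higher and none lower. Leaving out the 5 cells with most UMIs of the list left the log2 ratio of its sum at 1.23, beside 1.21 with them. After thinning, Nfkbia was present in 44.5% of neutrophils in TNF- (38.0 to 51.1) and 88.0% in TNF+ (79.6 to 93.9), and in 26.0% and 34.0% of T cells. Ier3 was found in 36.4% and 70.7% of neutrophils and in 3.03% and 1.62% of T cells. For Tnfaip3 (11.4% and 29.3%) the T cells were at 16.6% and 19.4%, so the share in TNF- neutrophils is not above that in T cells.

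The promoters of these genes show where NF-kB could bind in the sequence. Shown are the 250 bases before the RefSeq start (GRCm38.p6, written 5′ to 3′ on the strand of the gene) of 4 of the 6 higher genes with a match, namely those above the free RNA reference and Tnip1, which has the most matches, chosen after their values were seen. Matches to the consensus kappaB site of 10 bases, on either strand, are in capitals.
Nfkbia (chr12:55492648-55492897, minus strand): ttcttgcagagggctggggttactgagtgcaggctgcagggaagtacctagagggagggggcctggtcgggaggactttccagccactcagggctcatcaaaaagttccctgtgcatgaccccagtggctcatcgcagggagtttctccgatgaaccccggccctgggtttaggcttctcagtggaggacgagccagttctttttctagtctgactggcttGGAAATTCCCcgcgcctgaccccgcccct
Tnfaip3 (chr10:19015411-19015660, minus strand): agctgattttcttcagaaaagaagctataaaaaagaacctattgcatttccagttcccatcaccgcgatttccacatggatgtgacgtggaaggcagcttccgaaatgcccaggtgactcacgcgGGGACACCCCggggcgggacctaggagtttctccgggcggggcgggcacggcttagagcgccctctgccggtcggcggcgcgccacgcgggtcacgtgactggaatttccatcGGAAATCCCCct
Tnip1 (chr11:54962941-54963190, minus strand): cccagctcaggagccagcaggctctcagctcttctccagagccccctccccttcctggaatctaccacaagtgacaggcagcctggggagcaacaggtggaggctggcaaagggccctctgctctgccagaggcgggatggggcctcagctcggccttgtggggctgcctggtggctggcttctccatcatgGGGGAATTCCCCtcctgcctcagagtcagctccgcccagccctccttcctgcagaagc
Ier3 (chr17:35821463-35821712, plus strand): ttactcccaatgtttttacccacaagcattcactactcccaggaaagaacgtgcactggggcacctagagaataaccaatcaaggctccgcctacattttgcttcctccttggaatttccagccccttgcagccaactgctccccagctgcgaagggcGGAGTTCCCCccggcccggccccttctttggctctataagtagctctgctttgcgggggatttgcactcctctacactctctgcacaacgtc
The windows hold 1 match in Nfkbia and in Ier3, 2 in Tnfaip3 and 3 that overlap each other in Tnip1, and the match closest to a start lies 12 bases before that of Tnfaip3. Of 32851 such windows in the RefSeq table, 7.25% hold a match. In the list, 16 of 19 genes had a window and 9 held a match, 6 of 8 among the higher genes and 3 of 8 among the others, which include Nfkb2, Rel and Tnfaip2. Birc3 and Icam1 were higher without a match in this window. A match is a run of letters and does not show binding.

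The receptors of TNF were not higher. Tnfrsf1a stood at 208 and 148 CPM, a log2 ratio of -0.49, and Tnfrsf1b at 170 and 124, -0.46, both close to the median of all genes. Mouse Tnf itself was at 48.8 and 206 CPM, a log2 ratio of 2.08 (1.62 to 2.54), in 15.1% and 45.7% of cells. That level lies within the free RNA reference, and after thinning Tnf was found in 3.39% and 19.6% of neutrophils and 5.50% and 11.4% of T cells. The lymphotoxin receptor Ltbr was lower (-1.23, 47 and 10 UMIs). Of the 8 genes of TNF signalling compared, 1 was higher and 1 lower.

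C3, the central complement protein, was the third highest of the named genes. It was at 63.2 CPM in TNF- (79 UMIs) and 466 in TNF+ (290 UMIs), a log2 ratio of 2.88 (2.52 to 3.26). Cells held 0 to 9 C3 UMIs with a median of 0 in TNF-, and 0 to 13 with a median of 3 in TNF+, and 18.9% and 78.7% of them held any. Free C3 was present in the TNF+ lung too, at 0.603 UMIs per T cell against 3.09 per neutrophil, and 0.0495 against 0.332 in TNF-. After thinning, 4.66% of neutrophils in TNF- (2.35 to 8.19) and 35.9% in TNF+ (26.1 to 46.5) held a C3 UMI, beside 0.550% and 3.05% of T cells. C3 lies at chr17:57203970-57228136 on the minus strand of GRCm38, with Mir6978 within it on the same strand.

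Of 7 complement genes compared, C3 was the 1 that was higher and the integrin Itgax (-1.03, 90 and 22 UMIs) the 1 that was lower. The C5a receptor C5ar1 was at 664 and 673 CPM, a log2 ratio of 0.02 (-0.15 to 0.19), and was found in 86.6% and 93.6% of cells, or 0.45 when scaled by gene ratios. Properdin (Cfp), a stabiliser of the alternative pathway that neutrophils store, was at 97.6 and 90.0 CPM. Factor B (Cfb) had 3 and 2 UMIs and C3ar1 2 and 2, too few to compare. The C5a receptor 2 gene, C5ar2, was at 131 and 64.3 CPM (-1.03), and within 2-fold when scaled by gene ratios.

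The 12 genes that stood highest in TNF+ by the naming rule were Gpr84, Prok2, C3, Cd14, Aoah, Upp1, Ngp, Ggh, Ly6g, Birc3, Fpr1 and Ifitm6, of 72 that met it. Gpr84 (chr15:103308235-103310612), a receptor of medium-chain fatty acids, had 3 UMIs in TNF- and 61 in TNF+ (2.40 and 98.0 CPM), a log2 ratio of 5.35 with a counting interval of 3.74 to 7.67, and was found in 1.26% and 38.3% of cells. Prok2, a secreted prokineticin of neutrophils, was at 22.4 and 270.0 CPM (3.59), with a median of 0 UMIs in both and a highest cell of 10 and 35. Classical monocytes held Prok2 at 0 and 0.696 CPM and Gpr84 at 14.4 and 78.6.

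Cd14, the coreceptor that passes bacterial lipopolysaccharide to TLR4, and Aoah, the hydrolase that detoxifies it, were both in that group. Cd14 was at 65.6 and 448 CPM, a log2 ratio of 2.77 (2.41 to 3.15), in 21.4% and 57.4% of cells, and Aoah at 14.4 and 93.2 (2.69). After thinning, Cd14 was found in 5.08% and 21.7% of neutrophils and 0 and 0.858% of T cells. Of the 10 Toll-like receptor genes compared, Cd14, Tlr2 (1.22) and the inhibitory kinase Irak3 (1.60) were higher and Tlr6 (-1.20) lower, while Tlr4 stood at -0.65 and Myd88 at -0.18. Upp1 (uridine phosphorylase) was at 65.6 and 424 CPM, Ggh (gamma-glutamyl hydrolase) at 18.4 and 91.6, and Ifitm6, an interferon-induced membrane protein also found in monocytes, at 203 and 849.

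**Figure D3:**
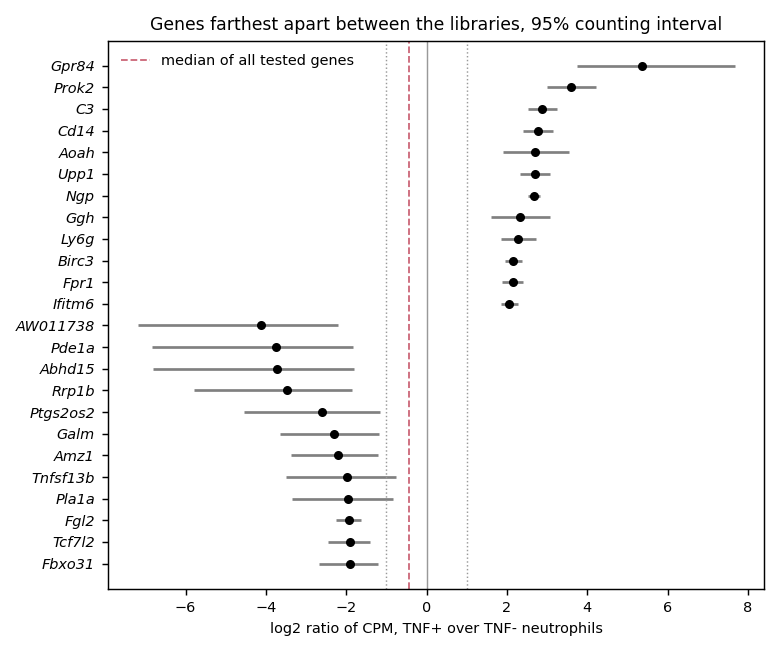
Log2 ratio of CPM, TNF+ over TNF- neutrophils (x axis), of the 12 highest and 12 lowest named genes (y axis), with 95% counting intervals as bars, a dashed line at the median of all compared genes (-0.43) and dotted lines at 2-fold. The widest bars belong to genes with 2 or 3 UMIs in a library, such as Gpr84 and AW011738, and the narrowest to Ngp.

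Among the 12 named genes lowest in TNF+, of 73 that met the rule, Fgl2 had the most UMIs. Fgl2 (chr5:21372642-21378374), a secreted and membrane-bound fibrinogen-like protein, was at 640 CPM in TNF- and 167 in TNF+, a log2 ratio of -1.94 (-2.25 to -1.64), and was found in 81.1% and 55.3% of cells, with medians of 3 and 1 UMIs. The others in order were AW011738 (-4.12), the phosphodiesterase Pde1a (-3.75), Abhd15 (-3.72), Rrp1b (-3.47), the long noncoding RNA gene Ptgs2os2 (-2.61), Galm (-2.29), Amz1 (-2.20), Tnfsf13b (-1.99), Pla1a (-1.97), Tcf7l2 (-1.92) and the ubiquitin ligase adaptor Fbxo31 (-1.90). The first 3 of these had 2 UMIs each in TNF+, and Tcf7l2 was at 0.05 without the members under 50 calprotectin UMIs, which held 221 of its 281 TNF- UMIs. Tnfsf13b codes BAFF, the B-cell survival factor, at 38.4 and 9.64 CPM.

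Cytokine genes of neutrophils were lower in 5 of 9 compared and higher in 1. Il15, which supports natural killer and memory T cells, was at 243 and 82.0 CPM (-1.57), in 58.0% and 27.7% of cells. Tnfsf14 (LIGHT) was at 63.2 and 22.5 (-1.49). Csf1, the macrophage growth factor, had 125 and 26 UMIs (-1.26, within 2-fold when scaled by gene ratios), and Il6 had 60 UMIs that came from 1 TNF- cell. Oncostatin M (Osm) was at 195 and 198 CPM. Il10 was higher on 4 and 19 UMIs, within the free RNA reference.

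Most interleukin 1 genes lay within 2-fold. Il1b, the main cytokine of these cells, was at 6384 and 6485 CPM, a log2 ratio of 0.02 (-0.03 to 0.08), in 97.1% and 98.9% of cells, or 0.45 when scaled by gene ratios. Its antagonist Il1rn was at 115 and 223 (0.96) and the inflammasome sensor Nlrp3 at 586 and 698 (0.25). Of 9 compared, none was higher and 1 lower, Il18 (-2.24), with 92.1% of its 38 TNF- UMIs in 5 cells.

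Among 7 chemokine ligands 2 were higher and 1 lower, with a median of 0.82. Without the members under 50 calprotectin UMIs 2 were higher and 2 lower, with a median of 0.34. Cxcl2, the ligand that draws further neutrophils through Cxcr2, was at 991 and 2485 CPM, a log2 ratio of 1.33 (1.22 to 1.43), and after thinning was found in 35.2% and 60.9% of neutrophils and 0.275% and 0.858% of T cells. Ccl3 was at 67.2 and 262 CPM (1.96), but 5 cells held 98.2% of its TNF+ UMIs. Its log2 ratio was 0.34 without the members under 50 calprotectin UMIs. Cxcl10 was lower (-1.43), with all its 130 TNF- UMIs in 5 cells or fewer. It came just within 2-fold (-0.95) without the members under 50 calprotectin UMIs. Ccl6, a constitutive chemokine of myeloid cells, was at 1799 and 935 (-0.94). Among the 9 receptors compared, Fpr1 and Fpr2 were higher, as was Ccr2 on 8 and 38 UMIs, all of the latter in 5 cells or fewer. Ccr1 (-0.59), Ltb4r1 (0.71) and Ptafr (0.71) lay within 2-fold.

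Of 10 receptors of marrow exit and homing compared, 1 was higher (Icam1) and 2 lower (Cxcr4 and Itga4). Csf3r and Cxcr2 are among the 10 but were in the rule, so their place in this count is description only. Cxcr4, which retains neutrophils in marrow and rises again as they age, was at 461 and 214 CPM, a log2 ratio of -1.11 (-1.39 to -0.83), or -0.68 when scaled by gene ratios. After thinning it was found in 34.3% (28.3 to 40.8) and 17.4% (10.3 to 26.7) of cells, and in 4.13% and 5.24% of T cells. The integrin Itga4 was at 374 and 117 CPM (-1.67, within the free RNA reference), while Selplg (-0.32) and Itgal (-0.56) stood near the median of all genes.

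Genes linked to neutrophils of tissues were lower in 4 of 8 compared and higher in none. Without the members under 50 calprotectin UMIs 2 of 6 were lower and 1 higher, and when scaled by gene ratios 1 of 8 was lower and 1 higher. Cd101, a late maturation marker, was at 188 and 70.7 CPM (-1.41) in 50.4% and 29.8% of cells. Ptgs2, the inducible cyclooxygenase, was at 295 and 116 (-1.35), with 81.9% of its TNF+ UMIs in 5 cells. Siglecf, which marks a tissue neutrophil state as well as eosinophils and alveolar macrophages, had 21 and 2 UMIs, and Ltc4s had 30 and 2. Of 6 genes of prostaglandin and leukotriene synthesis 2 were lower, Ptgs2 and Ltc4s, and Alox5 stood at -0.88. When scaled by gene ratios Cd101 (-0.98) and Ptgs2 (-0.92) came just within 2-fold.

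Interferon-stimulated genes were lower in 9 of 21 and higher in 1, with a median of -0.55, close to that of all genes. Ifit1 was at 149 and 33.8 CPM (-2.14), but 84.4% of its TNF- UMIs came from 5 cells, and Isg15 (-0.36) and Oasl2 (-0.17) lay within 2-fold. The sum of the list was higher per cell in TNF+, with medians of 64.6 and 90.9 UMIs per 10000. Ifitm1 (0.06), Ifitm2 (0.42) and Ifitm3 (0.67) held most of its UMIs. The median of the genes and that of the cells thus differ in sign. Scaled by gene ratios, 2 were higher and 5 lower.

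Stress genes that tissue digestion can induce were not higher in TNF+. Of 13 immediate-early genes, none was higher and 3 were lower: Egr1 (260 and 72.3 CPM, -1.85), Atf3 (-1.15) and Fosb (-1.12), while Fos stood at -0.64, Jun at -0.22 and Hspa1a at 0.19. In the survival list, 2 of 13 were higher and none lower, the death receptor Fas (92.0 and 329 CPM, 1.84) and the pro-apoptotic Bcl2l11 (1.10, within the free RNA reference). Mcl1, on which neutrophil survival depends, was at 1933 and 1941 CPM (0.01). None of 17 genes of hypoxia and glycolysis passed 2-fold, Hif1a being at 0.52. With free RNA subtracted 7 of 14 were at least 2-fold higher and 1 lower. But only 5 of the 17 stood above the free RNA reference, which is an upper limit. The subtraction can therefore remove RNA of the neutrophils themselves, and the ratios it leaves can be inflated.

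Effector genes were mostly within 2-fold. Of 11 genes of the oxidase and antimicrobial list, Ncf4 (1.23) and peroxiredoxin Prdx5 (1.15) were higher and catalase (Cat, -1.48, 28 and 5 UMIs) lower, while the oxidase subunits Ncf1 (0.62), Cyba (0.37) and Cybb (0.60) lay within 2-fold. Of 12 Fc receptors and partners, Clec5a (1.57) and Fcgr2b (1.19, 15 and 17 UMIs) were higher and Fcgr4 (-1.06) lower. The lectin Clec4e was at 0.93, and Fcer1g (0.42) and Tyrobp (-0.33) were within 2-fold. Among 11 genes of iron and oxidative stress, thioredoxin reductase Txnrd1 (1.16) was higher and Prdx1 (-1.26) lower. Of 12 transcription factors of granulopoiesis only Cebpa (-1.90, 45 and 6 UMIs) passed 2-fold, with Cebpb at 0.44, Spi1 at -0.15 and Cebpe at 0.94 on 21 and 20 UMIs. None of 8 genes of MHC class I passed.

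Proliferation genes were present in a few members. Of 6 cell cycle genes compared, 5 were lower in TNF+ and none higher, with a median of -2.06, but all lay within the free RNA reference, and without the members under 50 calprotectin UMIs the median was -0.37. Top2a had 59 UMIs in TNF-, 96.6% of them in 5 cells, and 2 in TNF+. Hmgb2, the most abundant of the list, was at 1209 and 1117 CPM.

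**Figure D4:**
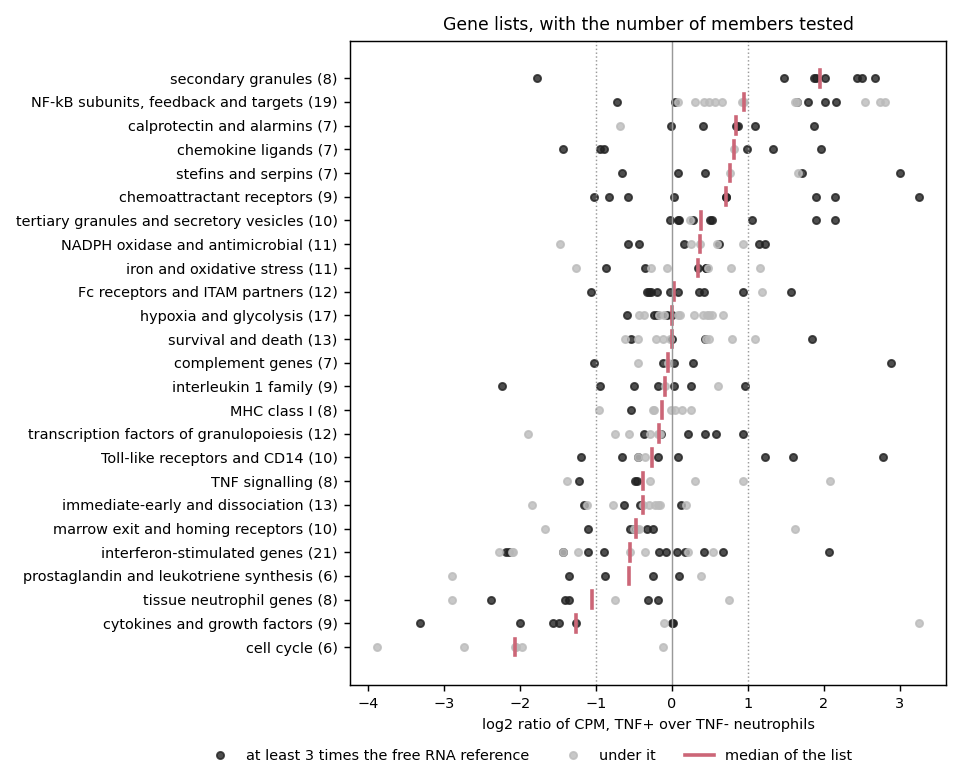
Log2 ratio of CPM, TNF+ over TNF- neutrophils (x axis), of each compared gene (points) in 25 gene lists (y axis, with the number compared), black where neutrophils held at least 3 times the free RNA reference, with the list median as a red bar and dotted lines at 2-fold. The secondary granule list has the highest median (1.95), the NF-kB list the next (0.95) and the cell cycle list the lowest (-2.06).

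Members were placed in an order by chosen early genes within each library. Variation along it is fixed by that choice, and whether it follows maturation was not tested. The thinned cells were ordered by their UMIs of 11 early genes (Lcn2, Ltf, Camp, Ngp, Mmp8, Ly6g, Chil3, Anxa1, Wfdc21, Cybb and Ifitm6), and cut into 3 equal parts of 79, 79 and 78 TNF- cells and 31, 31 and 30 TNF+ cells. The parts are ranges and not types. Chil3, among the 11, had 777 of its 860 TNF- UMIs in the members under 50 calprotectin UMIs. The median early count was 3 per 1000 UMIs in TNF- and 11 in TNF+, and the parts had medians of 1, 3 and 6 in TNF- and of 4, 11 and 18 in TNF+. S100a8, which is not among the 11, stood higher in the upper part of both libraries, at 20666, 40572 and 68251 CPM in TNF- and 54026, 96076 and 127266 in TNF+, and so did S100a9. Ptgs2 ran the other way, at 539, 218 and 162 CPM in TNF- and 289, 69.7 and 21.2 in TNF+.

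The upper TNF- part and the lower TNF+ part had medians of 6 (4 to 80) and 4 (0 to 8) early UMIs, so they are not matched, and their values are only set side by side. Nfkbia was at 528 (464 to 598) and 3058 (2811 to 3322), Tnfaip3 at 60.6 and 338, Birc3 at 149 and 1167, Ier3 at 562 and 1973, and Tnip1 at 28.1 and 251. C3 was at 71.4 (49.1 to 100.2) and 420 (331 to 525), Cd14 at 60.6 and 338, Fpr1 at 193 and 518 and Fpr2 at 184 and 452. Cxcr4 was at 353 (301 to 411) and 273 (202 to 359), with intervals that overlap, and Ptgs2 at 162 and 289, higher in TNF+.

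Within a library Nfkbia, C3 and Cd14 differed less between the upper and lower parts than between the libraries, unlike S100a8, S100a9 and Ptgs2. The log2 ratio of the upper over the lower part was -0.50 in TNF- and -0.30 in TNF+ for Nfkbia, 0.68 (-0.20 to 1.62) and 0.24 (-0.19 to 0.67) for C3 and 0.01 and 0.00 for Cd14. For Tnfaip3 it was -1.35 and 0.28, for S100a8 1.72 and 1.24, for S100a9 1.48 and 1.19 and for Ptgs2 -1.73 and -3.77. Ccl3 sat in the lower part, at 872 CPM in TNF+ against 4.98 and 8.47 in the others.

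**Figure D5:**
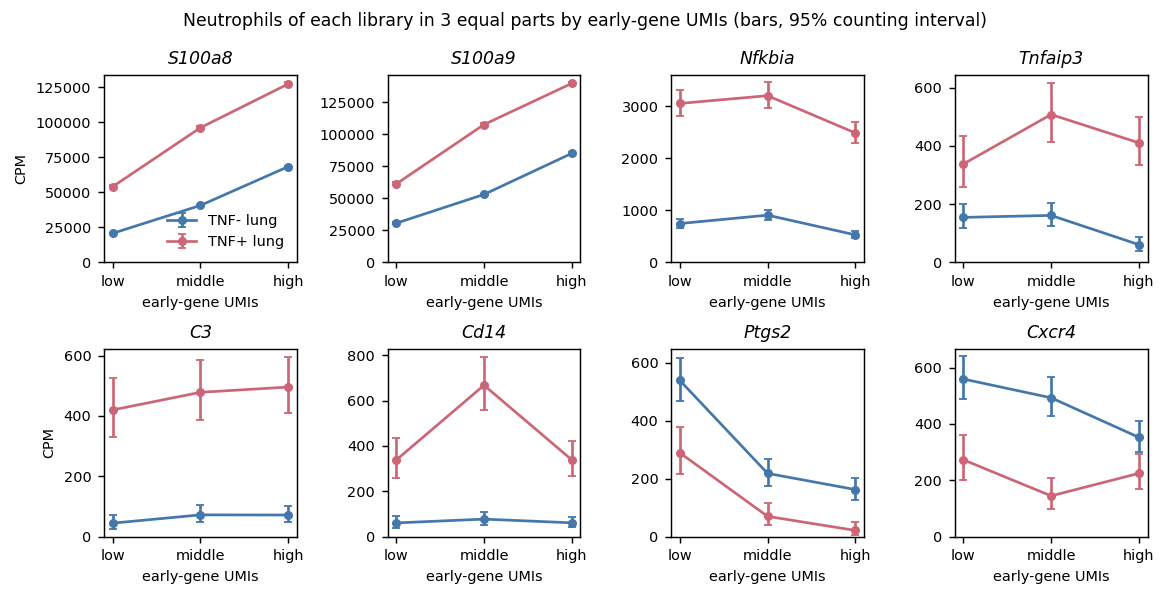
CPM (y axis, each panel on its own scale from 0) of 8 genes in 3 equal parts of the neutrophils of each library by their UMIs of 11 early genes (x axis), with 95% counting intervals as bars. S100a8 and S100a9 stand higher from part to part in both libraries, while Nfkbia, Tnfaip3, C3 and Cd14 lie higher in every TNF+ part than in any TNF- part.

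Other lung cells of the same libraries were set beside neutrophils without a test. The NF-kB list had 7 of 19 genes at least 2-fold higher and none lower in classical monocytes (median 0.64) and the same counts in macrophages (0.61), against 4 and 0 in T cells (0.55) and 3 and 0 in B cells (-0.23). In neutrophils it was 9 and 0 (0.95), while the median of all genes was -0.43 there, 0.03 in monocytes, -0.12 in macrophages, -0.02 in T cells and -0.38 in B cells. Nfkbia had log2 ratios of 1.72 in monocytes, 1.14 in macrophages, 0.56 in T cells and -0.11 in B cells, beside 2.01. C3 was higher in monocytes (303 and 615 CPM, 1.02) and macrophages (75.2 and 1272, 4.08), and its free RNA in T cells (4.32 and 52.7) differed likewise. Cd14 was also higher in TNF+ classical monocytes (36.0 and 109 CPM) but within 2-fold in macrophages (391 and 330 CPM, -0.25). Its log2 ratio in neutrophils was 2.77, and the difference between cell types was not tested. The interferon list had 17 of 21 genes at least 2-fold lower and none higher in classical monocytes (median -2.48). In macrophages 8 of 21 were lower and 1 higher (-0.91), and in B cells 12 and 1 (-1.37). For T cells 1 of 20 was lower and 3 higher (-0.05), beside 9 of 21 and 1 in neutrophils (-0.55).

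Neutrophil genes were also found outside the members. Lcn2 was at 8.10 and 518 CPM in classical monocytes, beside 963 and 3886 in neutrophils. Members held 73.0% of all S100a8 UMIs of the TNF- lung and 56.6% of those of the TNF+ lung, but 33.0% and 93.3% of Camp and 8.12% and 2.52% of Fpr1. Where the rest lay was not tested.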

How the data were processed

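Single-cell RNA of lung and synovium was measured in 4 libraries (10x Genomics 3′ chemistry), 1 per genotype and tissue. The authors deposited UMI counts per gene (32285 genes) and called barcode, without normalization, made with Cell Ranger 7.0.1 on mm10 per the submitters' processing notes. The lung libraries held 96120328 (TNF-) and 155989523 (TNF+) UMIs in 8555 and 11243 barcodes, and no cell type labels were among the files used here.

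Barcodes with at least 500 UMIs and at most 20% mitochondrial UMIs were kept, and neutrophils were taken by the rule given above. The members, the 37 gene lists and the thresholds were chosen with earlier results of these data known. UMIs were summed over the neutrophils of a library and divided by their total (CPM). Genes with at least 20 UMIs over both libraries were compared by the log2 ratio of CPM with a conditional binomial 95% interval, and a library with 0 UMIs was set to 3. In the ratios over classical monocytes any count under 3 was set to 3. A gene was counted as past 2-fold where the interval lay on 1 side of 0. Shares carry exact Clopper-Pearson intervals. With 1 library per group no test was run, and intervals cover counting error only.

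Named genes were of 3 kinds: members of the lists, the 15 highest over classical monocytes detected in 20% of cells, and the 12 highest and 12 lowest with at least 50 UMIs, detection in 10% of cells and 3 times the free RNA reference in the higher library, leaving out mitochondrial, ribosomal, immunoglobulin, haemoglobin, Gm, Rik and Xist genes. A gene can be of more than 1 kind. Doublets were not removed. As an alternative, the highest Scrublet scores (0.8% per 1000 barcodes) were left out, which took 586 and 1011 barcodes, 10 and 5 of them neutrophils. Promoters came from RefSeq (GRCm38.p6), gene positions from GENCODE on GRCm38. Python 3.11.15, numpy 2.4.6, scipy 1.17.1, pandas 2.3.3 and scanpy 1.11.5 were used, and the code was tested on simulated counts. In all, 15 alternatives were planned, and those on Csf1r up to 3, on the rule UMIs alone, on calprotectin and on the 5 cells with most UMIs were added after seeing the data. Some list members are not reported here by name.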

Additional observations from a re-analysis of the deposited data

How the results depend on the processing

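With 1 library per genotype, no replicate could be left out. No paired analysis was possible because each group has 1 sample and no result comes from a test. The fold between the shares stayed within 1.5 times its value under 12 other settings and was 0.997 with at least 5 rule UMIs and no other condition, where the shares were 4.28% and 4.29%. The TNF- share moved to 3.32% with 200 to 5000 genes in place of 500 UMIs. With Csf1r at 0 and C1q under 5 the shares moved to 2.09% (TNF-) and 0.460% (TNF+), with Csf1r up to 3 the TNF+ share to 1.16%, and with calprotectin UMIs alone the shares to 3.40% and 1.49%. The count of genes higher in TNF+ (220) was 464 with scaling by the median of gene ratios, 106 after thinning to 1000 UMIs and 100 with at least 100 UMIs per gene. The count of lower genes (1316) was 670, 227 and 297 in those settings. It was 814 with 200 to 5000 genes, 749 with Csf1r at 0, 759 without neutrophils over 3 times the median UMIs, 2204 with Csf1r up to 3, 799 without members under 50 calprotectin UMIs and 632 with free RNA subtracted. Of 6900 genes, 2480 were compared after thinning and 1682 with free RNA subtracted, and 8102 with Csf1r up to 3. The cause was not tested further.

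Of 24 named genes, 22 to 24 stayed past 2-fold in every setting but thinning, where 12 of the 13 with enough UMIs did. Tcf7l2 turned from -1.92 to 0.057 with at least 10 rule UMIs, 0.031 with Csf1r at 0, 0.22 without neutrophils over 3 times the median and 0.051 without members low in calprotectin. Chil3 turned from -1.78 to 0.13 with 200 to 5000 genes, 1.34 with at least 10 rule UMIs, 0.20 with Csf1r at 0, 1.39 without neutrophils over 3 times the median, 1.33 without members low in calprotectin and 0.068 with each cell weighted equally. Without the highest Scrublet scores the epithelial list went from -2.58 to 0.18 and the secondary granule list from 1.95 to 2.80. Of 605 list medians 49 changed sign. With free RNA subtracted the median of the chemokine list went from 0.82 to -0.48 and that of the oxidase list from 0.37 to -0.19, and 4 of 7 survival genes were higher and 1 lower. That setting takes out an upper limit of free RNA and sets the remainder to at least 3 UMIs. Its ratios can therefore be inflated where few UMIs remain. With at least 5 UMIs per gene 318 of 11163 were higher and 1545 lower, so the limit of 20 UMIs leaves out genes past 2-fold.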

Other observations

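The same rule applied to the synovial libraries, which the comparisons above do not use, took 27 of 6638 TNF- barcodes (0.407%, 0.268 to 0.591) and 16 of 3498 TNF+ barcodes (0.457%, 0.262 to 0.742). Together they are under 50 cells, and they are given as values only. Camp was at 14580 CPM in the TNF- synovial cells and 2969 in the TNF+ ones, and Ngp at 8973 and 5530, against 274 and 1483 (Camp) and 366 and 2327 (Ngp) in the lung. Nfkbia was at 383 and 709 CPM, C3 at 292 and 433, Cd14 at 783 and 3763 and S100a8 at 56784 and 111460. The precursor genes Mpo, Elane, Ctsg and Prtn3 held 522, 365, 348 and 322 UMIs in the TNF- synovial cells, and the cycle genes Top2a and Mki67 held 55 and 42, while all 6 were at 0 in the TNF+ ones. In TNF- the cell with most UMIs held 83378 of 349728. The part of these in the Camp and Ngp values was not tested.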
